A study of Mus musculus with 6 samples.

Results

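The annexin family was taken as 8 genes, Anxa1 to Anxa7 and Anxa11, and read from the rows of the authors' unfiltered gene table that carry these symbols. Of the 8 genes, 7 had a row, and Anxa11 had none and is not analysed here. The table holds 13960 rows, of which 13042 were tested, and all 7 annexin rows were among them. RNA was taken from the T8 contusion site of mouse spinal cord at 7 days and at 3 days after injury, with 3 libraries at each time. The labels give all animals the genotype LysMCre:Rplfl/fl > CD45.1 chimera and the strain CD45.1, and give no age. LysM-Cre switches on an epitope tag on a ribosomal protein, and ribosomes with their RNA were precipitated from the injury site (the RiboTag method). LysM-Cre is active in neutrophils and other myeloid cells as well as macrophages, and the labels do not say which cells of the recipients remained. The samples include neither intact cord nor input RNA, so each comparison sets 7 days against 3 days. Whether libraries came from separate animals or from pools is not in the labels, and the p-values measure only the spread between these libraries, which may be technical.

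Annexins are proteins that bind acidic phospholipids, chiefly phosphatidylserine, when calcium is present. They share a core of annexin repeats and differ in their N-terminal tails, where partner proteins such as the S100 family attach. In macrophages they are known for work on the plasma membrane and on phagosomes, for the patching of torn membrane, for vesicle traffic and, in the case of annexin A1, for signals that end inflammation through formyl peptide receptors.

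At 7 days, 3 of the 7 measured annexins were higher than at 3 days, 0 were lower and 4 were not called by limma. The 3 were Anxa3, Anxa5 and Anxa6, at 1.79, 1.53 and 1.32 times their mean level at 3 days. Anxa2 and Anxa7 had almost the same mean at both times. Values are FPKM, fragments scaled to transcript length and to the mapped fragments of the library, so levels can be set beside each other between genes. The test was limma on log2(FPKM + 1) over all 13042 tested genes, and a gene was called at a Benjamini-Hochberg adjusted p of 0.05 or less. At an unadjusted p under 0.05, 4 annexins were higher and 0 lower, beside 24.1% and 25.9% of all tested genes. In the authors' deposited table, q-values of 0.05 or less likewise went to 4 annexins higher and 0 lower, beside 17.8% and 20.7% of all tested genes. By limma's adjusted p, the share of all tested genes called higher was 18.8%, and called lower 20.3%. Among the 2657 genes with a mean of 30 FPKM or more, the range in which all 7 annexins lie, 40.0% were called higher and 10.4% lower when fitted alone. The members' 3 of 7, or 42.9%, is near that background. The median log2 change was 0.39 for the annexins, -0.04 for all tested genes and 0.26 for genes at 30 FPKM or more.

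**Figure D1:**
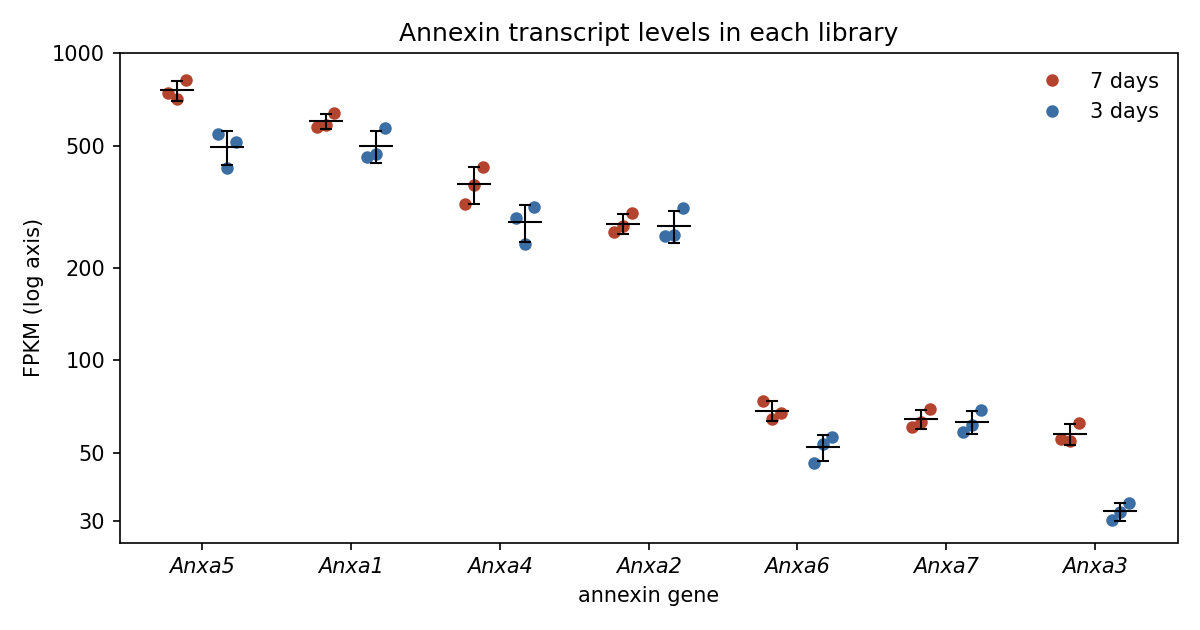
FPKM of the 7 annexins on a log axis, 7 days in red at the left of each pair and 3 days in blue at the right. Points are libraries in replicate order and bars are the mean and SD (n = 3). The groups of Anxa3, Anxa5, Anxa6, Anxa4 and Anxa1 do not overlap, and those of Anxa2 and Anxa7 do.

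The promoter stretches of Anxa5, Anxa1 and Anxa2 are shown because Anxa5 is the called member with the highest level and Anxa1 and Anxa2 are the members whose receptor and partner genes fell. They come from RefSeq on build GRCm38.p6, run 5′ to 3′ on the gene's own strand from 250 bases before the start to 50 after it, and lie at chr3:36475838-36476137 (minus strand), chr19:20390622-20390921 (minus strand) and chr9:69453433-69453732 (plus strand). Capitals mark matches on either strand to the TATA box TATAAA, the GC box GGGCGG, the CCAAT box CCAAT, the AP-1 element TGANTCA and the glucocorticoid receptor half-site AGAACA.
Anxa5: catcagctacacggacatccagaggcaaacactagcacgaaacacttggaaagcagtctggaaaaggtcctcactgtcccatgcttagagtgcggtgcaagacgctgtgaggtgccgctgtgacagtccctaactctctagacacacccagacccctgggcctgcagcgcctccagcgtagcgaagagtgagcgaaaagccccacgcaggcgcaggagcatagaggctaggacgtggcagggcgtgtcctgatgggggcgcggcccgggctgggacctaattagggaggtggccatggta
Anxa1: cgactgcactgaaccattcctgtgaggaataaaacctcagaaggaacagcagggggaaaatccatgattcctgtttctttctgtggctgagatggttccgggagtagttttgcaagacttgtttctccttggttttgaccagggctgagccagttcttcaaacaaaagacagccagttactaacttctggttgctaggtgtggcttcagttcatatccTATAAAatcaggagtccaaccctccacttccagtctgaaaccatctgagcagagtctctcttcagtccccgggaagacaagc
Anxa2: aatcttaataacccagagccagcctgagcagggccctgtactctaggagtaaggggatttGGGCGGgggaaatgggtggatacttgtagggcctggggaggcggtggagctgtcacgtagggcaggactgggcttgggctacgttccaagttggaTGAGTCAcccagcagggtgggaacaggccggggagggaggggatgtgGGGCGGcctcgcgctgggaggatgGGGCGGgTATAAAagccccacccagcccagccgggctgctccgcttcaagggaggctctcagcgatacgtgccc
The Anxa5 window held none of the 5 motifs and 16 CpG pairs. The Anxa1 window held 1 TATA box, at position -32 from the start, no other of these motifs and 3 CpG pairs. In Anxa2 there were 1 TATA box at -17, 3 GC boxes and 1 AP-1 element at -95, and no 2 of these matches overlap. Of 32851 RefSeq promoter windows of this length, 13.6% held the TATA box, 35.7% the GC box, 37.4% the CCAAT box, 7.81% the AP-1 element and 19.0% the glucocorticoid receptor half-site. A match is a run of letters and says nothing about which factors were bound in these samples.

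Anxa5 and Anxa1 were the most abundant members. Annexin A5 (mm10 chromosome 3, 36448754 to 36475749, as the table gives it) coats membranes that expose phosphatidylserine and is the protein used to stain dying cells. Its FPKM was 740.2, 706 and 819.6 in the 7-day libraries, against 545, 424 and 515 in the 3-day libraries. Every 7-day library lay above every 3-day library. Anxa5 averaged 755 ± 58.2 FPKM in 7-day libraries and 494 ± 63.3 FPKM in 3-day libraries (SD, n = 3 each), and the log2 change was 0.62 ± 0.15 (SE; limma adjusted p = 0.0156; 95% interval 0.27 to 0.96). Without 7-day replicate 3 the call was lost, with an adjusted p of 0.0592.

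Annexin A1 (chromosome 19, 20373267 to 20391018) is induced by glucocorticoids and acts on formyl peptide receptors of leukocytes. Anxa1 measured 574, 585 and 639 FPKM at 7 days, against 458, 469 and 568 FPKM at 3 days. The groups did not overlap, but the highest 3-day library came within a few FPKM of the lowest 7-day one. Its means were 599 ± 34.7 FPKM at 7 days and 499 ± 60.6 FPKM at 3 days, and the log2 change of 0.27 ± 0.14 was not called (limma adjusted p = 0.151). Its 95% interval ran from -0.05 to 0.59, so an equal level and a rise of that size both lie in it.

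Anxa4 and Anxa2 came next in level. Annexin A4 (chromosome 6, 86736585 to 86793591) is a membrane-binding annexin known best from epithelial cells. Anxa4 had 323, 373 and 426 FPKM at 7 days, against 289.6, 239 and 316 FPKM at 3 days, with no overlap. Its log2 change was 0.41 ± 0.15 (95% interval 0.05 to 0.77), with an unadjusted p of 0.0316 and a limma adjusted p of 0.0715, so it was not called here. The authors' deposited table gives Anxa4 a q-value of 0.0200, below 0.05. It gives q-values of 3.13e-04 to Anxa3, 3.13e-04 to Anxa5 and 0.0171 to Anxa6, and 0.218, 0.916 and 0.891 to Anxa1, Anxa2 and Anxa7.

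Annexin A2 (chromosome 9, 69453669 to 69492182) forms a tetramer with S100A10, links membranes to actin and serves as a surface site for plasminogen activation. The FPKM of Anxa2 was 261, 273 and 301 at 7 days, against 254, 256 and 313 at 3 days. The ranges overlapped, and the highest of the 6 values was from a 3-day library. The log2 change was 0.02 ± 0.13 (limma adjusted p = 0.884), with a 95% interval from -0.27 to 0.32. RefSeq annotates a pseudogene related to Anxa2, and the authors' counting could have split reads between them.

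Anxa6, Anxa7 and Anxa3 were the members with the lowest levels. Annexin A6 (chromosome 11, 54978725 to 55033456), which has a doubled annexin core, takes part in endosome traffic and cholesterol distribution. Anxa6 measured 74.1, 64.3 and 67.3 FPKM at 7 days, against 46.6, 53.5 and 56.3 FPKM at 3 days, again without overlap. Its log2 change was 0.39 ± 0.11 (limma adjusted p = 0.0259), and leaving out 7-day replicate 1, 2 or 3 gave adjusted p-values of 0.0908, 0.0507 and 0.0691.

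Annexin A7 (chromosome 14, 20455169 to 20480090), also called synexin, was first known for fusing secretory granules. Anxa7 had 60.6, 63.0 and 69.4 FPKM at 7 days, against 58.4, 61.8 and 69.1 FPKM at 3 days. The groups overlapped almost fully, with a log2 change of 0.03 ± 0.10 (limma adjusted p = 0.839; 95% interval -0.21 to 0.27).

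Annexin A3 (chromosome 5, 96793332 to 96846060) is found in neutrophil granules and, in the nervous system, in microglia. Its gene was the lowest of the 7 at both times and changed by the largest factor of the family. Anxa3 measured 55.6, 54.7 and 62.7 FPKM at 7 days, against 30.2, 32.2 and 34.4 FPKM at 3 days. The lowest 7-day value exceeded the highest 3-day value by more than the range within either group. Its mean was 57.7 ± 4.41 FPKM at 7 days and 32.3 ± 2.11 FPKM at 3 days, with a log2 change of 0.82 ± 0.10 (limma adjusted p = 0.00133; 95% interval 0.59 to 1.05). Anxa3 kept its call under all 18 alternative settings tried.

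**Figure D2:**
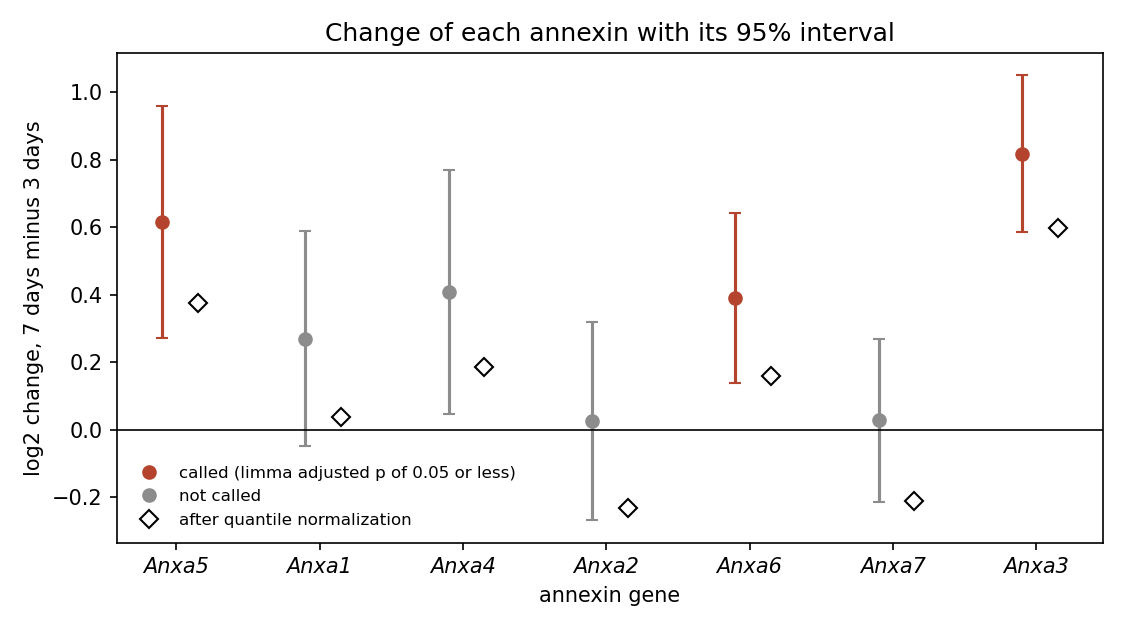
log2 change, 7 days minus 3 days, of each annexin with its 95% interval from limma (circles, red where called), and the same change after quantile normalization (open diamonds). After it only Anxa3, at 0.60, remained called, and Anxa2 and Anxa7 lay below 0.

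The scaling between libraries mattered for the family. Quantile normalization, which gives each library the same distribution of values, moved the median annexin change to 0.16, against 0.39 without it, while the median of all genes moved to 0.05, against -0.04. Under it Anxa5 had a log2 change of 0.37 (limma adjusted p = 0.0813) and Anxa6 of 0.16 (adjusted p = 0.321), so 1 of 7 annexins was called higher, beside 17.8% of all tested genes. Taking all measured members, 5 of 7 (71.4%) had every 7-day library above every 3-day library. That pattern held for 26.8% of all tested genes and for 47.8% of the genes at 30 FPKM or more. Within each time 1 library was the highest for most members, 7-day replicate 3 for 6 of the 7 annexins and 3-day replicate 3 for 6 of the 7.

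The order of levels was nearly the same at both times. At 7 days it ran Anxa5, Anxa1, Anxa4, Anxa2, Anxa6, Anxa7 and Anxa3, and the first 4 were each above the next in every library with no overlap. Anxa6 and Anxa7 overlapped, with Anxa6 above Anxa7 in 2 of 3 libraries, and the range of Anxa7 also overlapped that of Anxa3. At 3 days Anxa1 and Anxa5 had means of 499 and 494 FPKM and overlapping ranges, as did Anxa4 and Anxa2 at 282 and 274 FPKM. Below them Anxa7, Anxa6 and Anxa3 were separate from each other. By mean FPKM, Anxa5 ranked 34th of the 13042 tested genes at 7 days and 60th at 3 days, and Anxa1 55th and 56th.

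Summed over the 7 genes, annexin FPKM was 2089, 2119 and 2384 at 7 days, against 1682, 1536 and 1871 at 3 days. The sums did not overlap, and their means were in the ratio 1.30 (two-sided exact permutation test, p = 0.1, the smallest that 3 against 3 libraries allow). As a share of the summed FPKM of all tested genes, which does not depend on a common scaling factor, the family made up 0.553% ± 0.0362 at 7 days and 0.471% ± 0.0301 at 3 days (SD, n = 3 each; exact p = 0.1).

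The make-up of that sum differed between the times. Anxa5 made up 35.4%, 33.3% and 34.4% of annexin FPKM at 7 days, against 32.4%, 27.6% and 27.5% at 3 days. Anxa2 made up 12.5%, 12.9% and 12.6% at 7 days, against 15.1%, 16.7% and 16.7% at 3 days. The share of Anxa3 was 2.62% ± 0.0410 at 7 days and 1.91% ± 0.163 at 3 days, and that of Anxa7 was 2.93% ± 0.0412 at 7 days and 3.73% ± 0.276 at 3 days. For these 4 genes the shares at the times did not overlap (exact permutation test, p = 0.1 each, 0.175 adjusted over the 7 shares). The shares of Anxa1, Anxa4 and Anxa6 overlapped (exact p = 0.3, 0.6 and 0.7). A share falls when other members rise, so the lower shares of Anxa2 and Anxa7 need not be lower levels. Their log2 changes were 0.02 and 0.03 on the deposited values, and -0.23 and -0.21 after quantile normalization. Neither gene was called in either case.

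**Figure D3:**
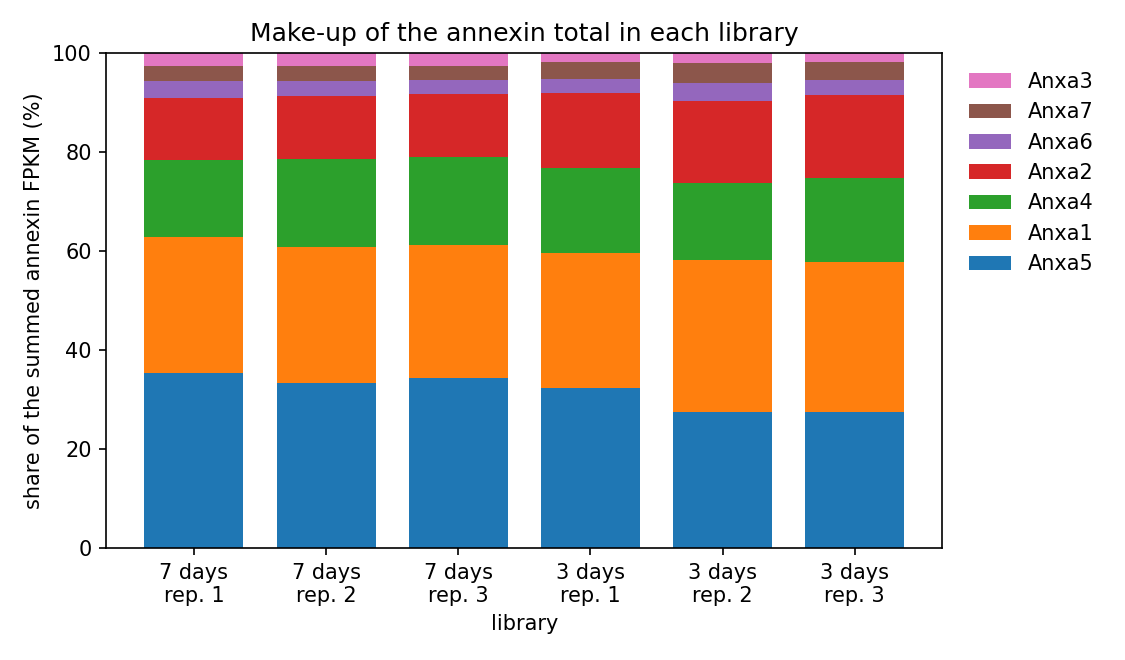
Share of each annexin in the summed annexin FPKM of each library, in percent, 7-day libraries at the left and 3-day libraries at the right. Anxa5 takes 33.3% to 35.4% at 7 days and 27.5% to 32.4% at 3 days, and Anxa2 takes 12.5% to 12.9% at 7 days and 15.1% to 16.7% at 3 days.

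Ratios of 2 genes within a library, chosen after the values were seen, are free of the scaling between libraries. The ratio of Anxa3 to Anxa2 was 0.213, 0.200 and 0.208 at 7 days, against 0.119, 0.126 and 0.110 at 3 days. The ratio of Anxa5 to Anxa2 was 2.83, 2.59 and 2.72 at 7 days, against 2.15, 1.65 and 1.65 at 3 days. In both pairs the times did not overlap (exact permutation test of the log2 ratios, p = 0.1, and 0.1 adjusted over the 4 ratios computed).

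S100 proteins are small proteins, many of them calcium sensors, and some of them bind annexin tails. Of 6 on the list, 5 had a row and 4 were tested. Of these 1 was higher, 2 were lower and 1 was not called, beside 18.8% higher and 20.3% lower of all tested genes. Their median log2 change was -0.78. S100a10, whose product forms the tetramer with annexin A2, had 66.4, 86.4 and 80.6 FPKM at 7 days, against 109, 156 and 163 FPKM at 3 days. All 7-day values lay below all 3-day values, and the log2 change was -0.86 ± 0.18 (limma adjusted p = 0.00904). Anxa2 exceeded S100a10 by a ratio of 3.93, 3.16 and 3.74 at 7 days, against 2.32, 1.64 and 1.91 at 3 days (exact permutation test, p = 0.1). S100a6, which binds several annexins, fell to 183 ± 46.8 FPKM at 7 days, against 528 ± 104 FPKM at 3 days (log2 -1.54 ± 0.22; adjusted p = 0.00252). S100a1 rose to 90.1 ± 8.396 FPKM at 7 days, against 23.1 ± 5.83 FPKM at 3 days (log2 1.94 ± 0.18; adjusted p = 6.24e-04). S100b, which is also an astrocyte gene, had means of 12.04 and 20.95 FPKM at 7 and 3 days and overlapping ranges. It was not called (limma unadjusted p = 0.0231, adjusted p = 0.0566), but the authors' deposited q-value was 0.0396. At an unadjusted p under 0.05, 1 gene of the list was higher and 3 lower, beside 24.1% and 25.9% of all tested genes. The authors' q-values of 0.05 or less also gave 1 higher and 3 lower, beside 17.8% and 20.7%. S100a11, the partner of annexin A1, read 18.3, 27.6 and 20.0 FPKM at 7 days, against 66.9, 59.5 and 76.7 FPKM at 3 days. It was not tested, because the authors' own means for it are 0.246 FPKM at 7 days and 0.985 FPKM at 3 days and do not match the library values.

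Both formyl peptide receptor genes with a row fell, while their ligand gene Anxa1 was not called. Of all tested genes, 20.3% were called lower. Fpr2, the main receptor for annexin A1, had 1.81, 1.57 and 1.04 FPKM at 7 days, against 6.65, 6.32 and 8.14 FPKM at 3 days (log2 -1.71 ± 0.18; limma adjusted p = 8.69e-04). Fpr1, the classical receptor for bacterial formyl peptides, had 1.73, 1.25 and 1.41 FPKM at 7 days, against 2.68, 3.42 and 3.43 FPKM at 3 days (log2 -0.76 ± 0.17; adjusted p = 0.0114). After quantile normalization the Fpr1 call was lost (adjusted p = 0.182) and the Fpr2 call stayed. These receptors were low at both times and are not tested when genes under 5 FPKM are left out, and log2(FPKM + 1) understates the fold of such genes. Anxa1 stood to Fpr2 in a ratio of 318, 372 and 614 at 7 days, against 68.9, 74.3 and 69.9 at 3 days (exact permutation test, p = 0.1).

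**Figure D4:**
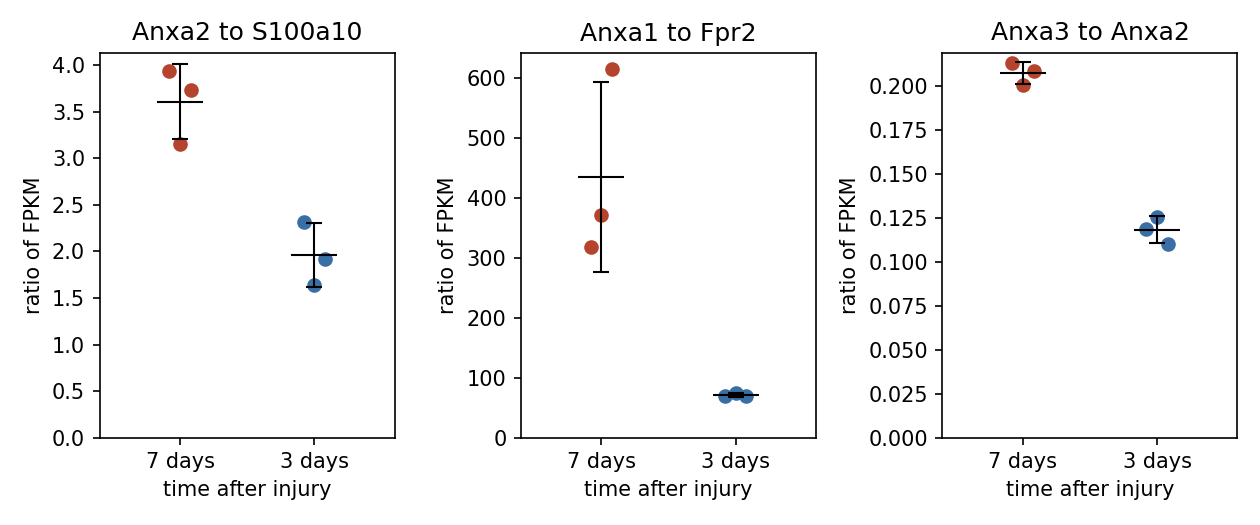
Ratio of the FPKM of 2 genes in the same library, 7 days in red at the left and 3 days in blue at the right, with the mean and SD (n = 3). All 3 ratios, Anxa2 to S100a10, Anxa1 to Fpr2 and Anxa3 to Anxa2, are higher in every 7-day library than in any 3-day library.

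Genes of membrane repair and calcium-dependent annexin partners were called in both directions. Of 18 named, 17 had a row and 16 were tested, with 5 higher, 5 lower and 6 not called. Of all tested genes, 18.8% were called higher and 20.3% lower, and at 30 FPKM or more 40.0% and 10.4%. The median log2 change of the list was 0.14. Dysf, the gene of dysferlin, which works with annexins at torn membrane, fell to 0.716 ± 0.406 FPKM at 7 days, against 5.03 ± 0.952 FPKM at 3 days (log2 -1.83 ± 0.22; adjusted p = 0.00131). The caveolin gene Cav1 fell to 6.63 ± 1.26 FPKM at 7 days, against 22.6 ± 7.51 FPKM at 3 days (adjusted p = 0.00258), and Ehd1, of endosome recycling, to 14.6 ± 1.013 FPKM at 7 days, against 34.5 ± 1.56 FPKM at 3 days (adjusted p = 4.00e-04). Pdcd6, the gene of ALG-2, a calcium sensor that binds annexin A7 and annexin A11, rose to 72.6 ± 5.10 FPKM at 7 days, against 43.0 ± 2.35 FPKM at 3 days (log2 0.74 ± 0.10; adjusted p = 0.00162). The genes Sri, Vps4b, Myof and Capns1 were also higher, with log2 changes of 0.71, 0.67, 0.66 and 0.41. Capn2 was also lower, at -0.39. Ehd2 was lower too, with 0.457 ± 0.0706 FPKM at 7 days and 2.37 ± 1.17 FPKM at 3 days, and its log2 change of -1.16 on the log2(FPKM + 1) scale understates the fold of so low a gene. Ahnak, a scaffold for annexin A2 with S100A10, was not tested because its library values miss the authors' means by over 1%; they read 235, 204 and 228 FPKM at 7 days, against 263, 178 and 204 FPKM at 3 days.

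The lipid that annexins bind is moved across the membrane by scramblases and flippases. Of 9 such genes, 8 were tested, with 3 higher, 0 lower and 5 not called by limma, and a median log2 change of 0.17. Of all tested genes, limma called 18.8% higher and 20.3% lower. Among genes at 30 FPKM or more it called 40.0% higher and 10.4% lower. With that filter, which tests fewer genes of the list, 2 of them were called higher and 0 lower. At an unadjusted p under 0.05 there were 3 higher and 1 lower, Plscr3 (log2 change -0.41, limma adjusted p = 0.0767), beside 24.1% and 25.9% of all tested genes. By the authors' deposited q-values 2 were higher and 1 lower, Atp11b (q-value of 0.00204, limma adjusted p = 0.134), beside 17.8% and 20.7%. Tmem30a, the subunit that flippases need, rose to 112 ± 10.3 FPKM at 7 days, against 78.4 ± 3.75 FPKM at 3 days (adjusted p = 0.00891). Plscr1, of the phospholipid scramblase family, had a mean of 21.3 FPKM at 7 days and 14.97 FPKM at 3 days (adjusted p = 0.0436). Plscr1 lost its call under 8 of the settings tried, and the count called higher fell to 1 after quantile normalization, with a constant prior variance and without 3-day replicate 2 or 7-day replicates 1 or 2. Without 7-day replicate 2, Plscr3 was called lower (adjusted p = 0.0435). Ano6, the calcium-activated scramblase, had means of 96.2 and 84.9 FPKM at 7 and 3 days and was not called (adjusted p = 0.174).

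Annexin A2 with S100A10 is known as a docking site for plasminogen and its activator. Of 8 genes of that system, 6 were tested, with 1 higher, 2 lower and 3 not called, and a median log2 change of -0.31. The shares of all tested genes were 18.8% higher and 20.3% lower. Plau, the urokinase gene, rose to 151 ± 8.68 FPKM at 7 days, against 63.4 ± 2.74 FPKM at 3 days (log2 1.23 ± 0.09; adjusted p = 2.86e-04). Plat, the tissue activator gene, had 2.18, 2.52 and 3.74 FPKM at 7 days, against 5.18, 16.04 and 5.14 FPKM at 3 days (adjusted p = 0.0484), and the highest value was in 3-day replicate 2. Plat was called in 9 of 16 alternative settings. It was not called without 3-day replicate 3 or any 1 of the 7-day libraries. The call was also lost after quantile normalization, with a pseudocount of 5 and with a constant prior variance.

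Anxa1 is a textbook target of the glucocorticoid receptor. Of 9 genes of the receptor and its targets, 8 were tested, with 2 higher, 3 lower and 3 not called, and a median log2 change of -0.68. The shares of all tested genes were 18.8% higher and 20.3% lower. The receptor gene Nr3c1 had means of 43.6 and 34.8 FPKM at 7 and 3 days, with an adjusted p of 0.0499 and a call in 2 of 18 alternative settings. Among the targets, Sgk1 rose to 224 ± 13.7 FPKM at 7 days, against 142 ± 6.65 FPKM at 3 days, while Fkbp5 fell to 14.7 ± 2.34 FPKM at 7 days, against 30.5 ± 9.12 FPKM at 3 days. Zfp36 fell to 8.80 ± 0.501 FPKM at 7 days, against 19.6 ± 2.13 FPKM at 3 days, and Dusp1 was also lower, with a log2 change of -1.12. Tsc22d3, the gene of the glucocorticoid-induced leucine zipper, had means of 43.8 and 39.9 FPKM at 7 and 3 days and was not called (adjusted p = 0.457). The targets moved in both directions, and Zfp36 and Dusp1 are also genes that many stimuli induce rapidly.

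**Figure D5:**
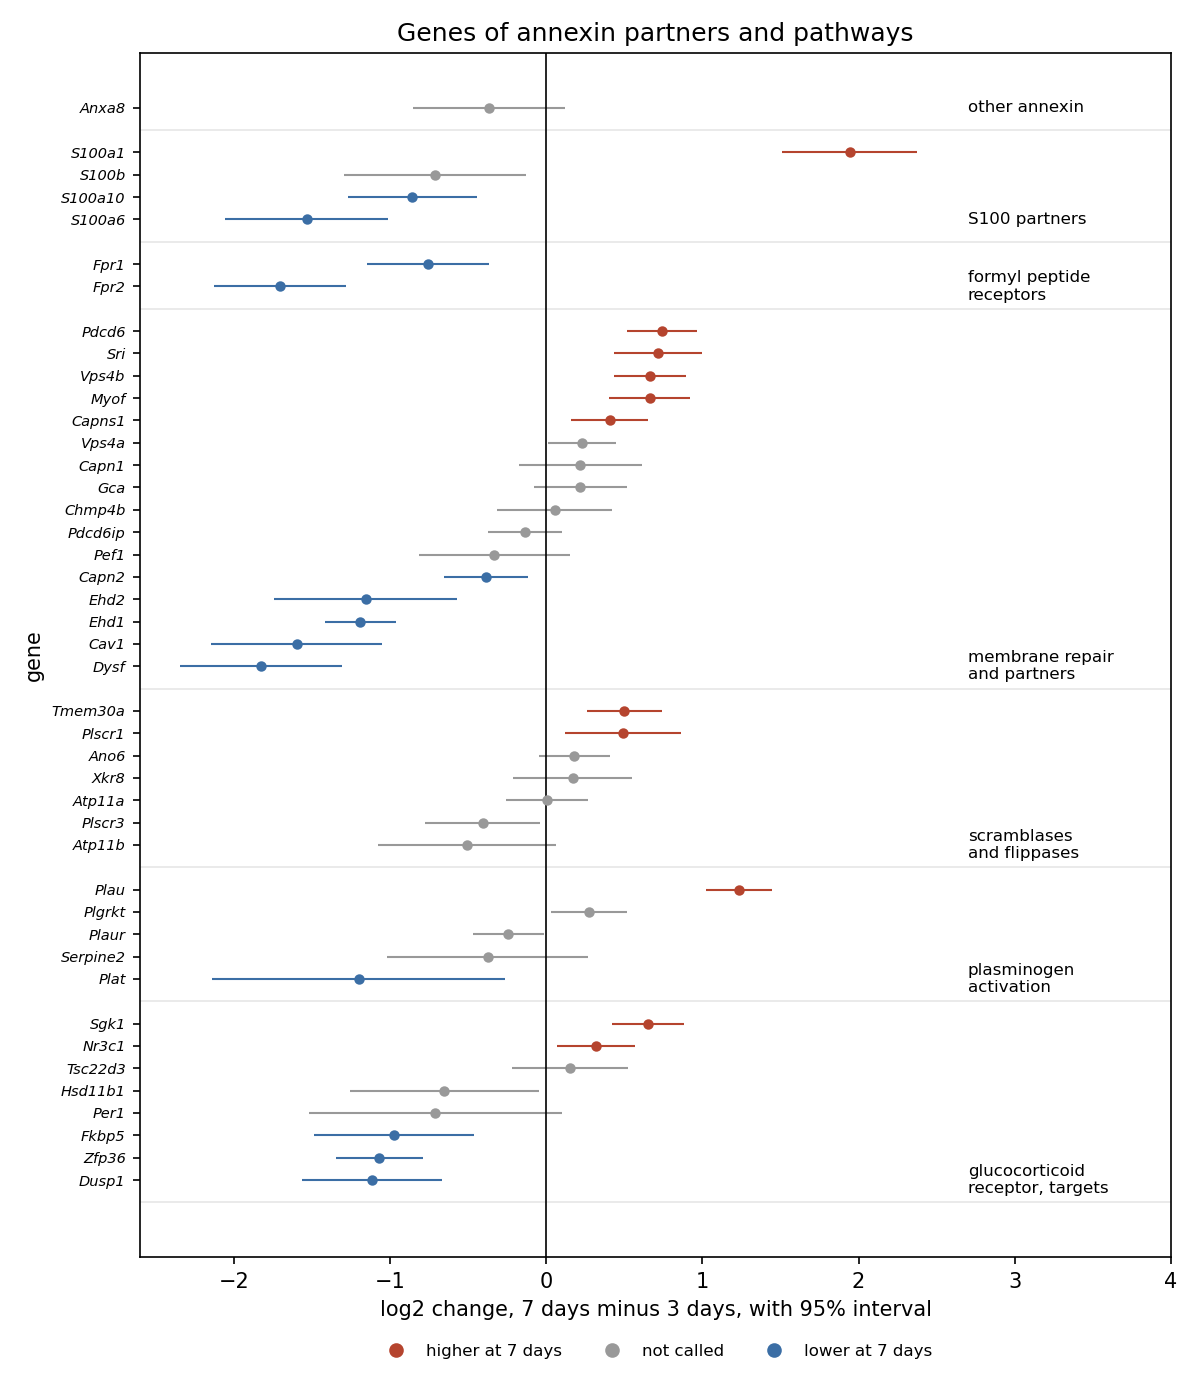
log2 change, 7 days minus 3 days, of the genes of the partner lists reported here with its 95% interval from limma. Red marks genes called higher at 7 days, blue genes called lower and grey genes not called. Both formyl peptide receptors lie below 0, and the membrane repair list holds 5 called genes on each side.

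Of the annexins outside the chosen 8, Anxa8 alone had a row among Anxa8, Anxa9, Anxa10 and Anxa13. Anxa8 had 0.337, 0.401 and 0.391 FPKM at 7 days, against 0.839, 1.19 and 0.385 FPKM at 3 days. The ranges overlapped and it was not called (limma adjusted p = 0.194; unadjusted p = 0.121; q-value of 0.121 in the authors' deposited table).

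Genes that followed a member most closely over the 6 libraries were sought by Pearson r of log2(FPKM + 1) among 5763 genes with a mean of 10 FPKM or more. All genes share the same 6 libraries and the same scaling, and r is given as a description. Idh1 (r = 0.9996) and Slc38a9 (0.998) were most like Anxa3, and Irf8 (0.993) and Cacul1 (0.993) most like Anxa5. The nearest to Anxa6 were Ift46 (0.992) and Nacc1 (0.992), to Anxa4 Tmem11 (0.998) and Ltbr (0.995), and to Anxa1 Tmem256 (0.992) and Otud5 (0.991). Mrpl45 (0.945) and Snrpb (0.939) were most like Anxa2, and Rpl8 (0.957) and Zfp938 (0.935) most like Anxa7. The number of genes at r of 0.9 or more was 1241 for Anxa3 and 999 for Anxa5, and 9 for Anxa2 and 14 for Anxa7, the members that differ least between the times.

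Markers of other cells also differed between the times, and their part in the annexin values was not tested. Of 10 macrophage markers, 6 were tested, with summed FPKM from 1254 to 1285 at 7 days and from 1237 to 1414 at 3 days. Mertk and Csf1r were higher at 7 days, Cd14 and Fcgr1 were lower, Lyz2 was set aside, and Adgre1, Cd68 and Mrc1 had no row. Of 6 microglia markers reported here 5 were higher, and their sum ran from 251 to 289 FPKM at 7 days and from 132 to 165 FPKM at 3 days. Tmem119 averaged 23.9 FPKM at 7 days and 13.7 FPKM at 3 days, and P2ry12 averaged 26.4 FPKM at 7 days and 14.7 FPKM at 3 days. Sall1, the microglia marker not called, went the other way, with means of 0.167 FPKM at 7 days and 0.845 FPKM at 3 days. Its log2 change was -0.64 (limma adjusted p = 0.0835). Of 7 tested inflammatory monocyte markers 5 were lower, with sums from 287 to 372 FPKM at 7 days and from 1007 to 1141 FPKM at 3 days, beside the fall of Fpr1 and Fpr2. Neutrophil markers, 8 of 12 tested, summed to 77.6 to 93.7 FPKM at 7 days and 74.1 to 78.6 FPKM at 3 days. Of these 2 were higher and 2 lower, and the median log2 change was -0.73. The higher genes, S100a8 and Mmp8, made up most of the sum. S100a8 averaged 28.1 FPKM at 7 days and 18.2 FPKM at 3 days, and Mmp8 averaged 43.5 and 24.95 FPKM. S100a9 and Cxcr2 were lower, with log2 changes of -1.34 and -0.77. Mpo was at 0 in all 7-day libraries, and Ly6g had no row. Astrocyte, oligodendrocyte, neuron, endothelial and Schwann cell markers had lower sums in every 7-day library than in any 3-day library, and each of these sums, as well as that of fibroblasts and pericytes, was highest in 3-day replicate 2. Dendritic cell markers, 3 of 6 tested, summed to 32.8 to 39.7 FPKM at 7 days and 11.8 to 14.5 FPKM at 3 days. Nearly all of it was Itgax (log2 change 1.52, limma adjusted p = 3.53e-04). Zbtb46 and Ccr7 had log2 changes of -0.39 and -0.34 and were not called (adjusted p = 0.314 and 0.297). Ccr7 was at 0 in all 7-day libraries. The B cell marker Cd79b, the 1 of 5 with a row, averaged 3.10 FPKM at 7 days and 0.923 FPKM at 3 days (adjusted p = 0.00442). T and NK cell sums ran from 0.571 to 2.16 FPKM at 7 days and from 0.655 to 1.05 FPKM at 3 days. Erythroid sums ran from 15.9 to 22.4 FPKM at 7 days and from 164 to 213 FPKM at 3 days. Endothelial sums ran from 26.5 to 31.4 FPKM at 7 days and from 41.8 to 68.4 FPKM at 3 days. Of the 7 endothelial markers 5 were lower. Flt1 was higher (log2 change 1.63, limma adjusted p = 0.00137), and Kdr was not called (adjusted p = 0.0858). Cav1, Ehd2 and Plat, which endothelium also expresses, were lower too, and a link to these markers was not tested. Leaving out 3-day replicate 2 left all 3 annexin calls in place, with adjusted p-values of 0.00587 for Anxa3, 0.0407 for Anxa5 and 0.0457 for Anxa6. In a bulk precipitate, fewer cells of a type and less RNA per cell cannot be told apart.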

How the data were processed

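RiboTag precipitates were made into ScriptSeq v2 libraries, per the labels' protocols; the submitters' processing notes name the build mm10 and the tools TopHat2 2.0.12, Cufflinks 2.2 and Cuffdiff 2.2.1, without their roles. The authors deposited FPKM per gene and library, mean FPKM per time, a log2 fold change, a test statistic (a score with no fixed range, not used) and p-values and q-values of their own test. Scaling between libraries is not stated, and the reads behind each gene and the total depth are unknown; genes at 1 FPKM or more numbered 10248 to 10402 at 7 days and 11147 to 11675 at 3 days.

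Of 13960 rows, 918 were set aside: status other than OK, library values missing the authors' mean by over 1%, 0 beside 100 FPKM or more, or repeated symbols. The other 13042 were tested without a filter with limma 3.58.1 (R 4.3.3; mean-dependent prior variance, two-sided, Benjamini-Hochberg). Intervals of 95% are limma's. Python 3.11.15 with scipy 1.17.1 gave exact tests, which cannot go below p = 0.1 with 3 against 3. The scripts were tested on simulated data. Overlaps with other genes were read from GENCODE M21: antisense or other transcripts share exon bases with Anxa2, Anxa3 and Anxa4, and whether the counting used strand is not stated.

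The members and partner lists were chosen with earlier results of these data known. Named partner genes were a fixed set plus, by size of change, up to 4 called genes per list that reached 5 FPKM in the mean of either time; Ehd2, Capn2, Sri, Vps4b, Myof, Capns1, Dusp1, Plscr3, Atp11b and Ano6 were added after their values were seen. The promoter motifs were also chosen then, and the glucocorticoid receptor half-site took the place of the full palindromic element, which was searched first. Alternatives varied the pseudocount, low-value filter, scaling, prior variance, rows, table, replicates and replicate number as a block. Protein sequences were not used here. Some genes of the lists enter the counts but are not reported here.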

Additional observations from a re-analysis of the deposited data

How the results depend on the processing

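Called annexins numbered 3 higher and 0 lower; the higher count was 1 after quantile normalization, 1 to 3 with a library left out (1 without 7-day replicate 3, 2 without 7-day replicate 1 or 2) and 3 with the other settings. Anxa2, not called, had a log2 change of -0.23 after quantile normalization, and from -0.033 to 0.12 with a library left out (below 0 without 3-day replicate 1 or 2 or 7-day replicate 3); Anxa7, not called, had -0.21 after quantile normalization and from -0.027 to 0.095 with a library left out (below 0 without 3-day replicate 1 or 7-day replicate 3); Tsc22d3 had -0.055 after quantile normalization; the cause was not tested. Counts over all genes were 2453 higher and 2645 lower. They were 1063 and 276 with genes at 30 FPKM or more, a filter chosen after seeing the data, and the lower count was 1204 with genes at 5 FPKM or more and 1433 with the authors' filtered table, which test fewer genes. Leaving out 1 library gave 1572 to 2207 higher and 1697 to 2565 lower. Called partner genes, 12 higher and 14 lower, had 4 lower at 30 FPKM or more, where fewer were tested. With Anxa5 left out of the sum, which by construction raises all other shares, the difference between the times was 0.13 percentage points for Anxa1 (-2.10 with Anxa5), 1.31 for Anxa3, 2.44 for Anxa4 and 0.43 for Anxa6. Whether libraries with the same replicate number were paired is not known. Deviations of same-numbered libraries correlated at 0.115, 0.0096 and 0.0105. The value for replicate 1 was the highest of all pairs, but not every library correlated best with its own number. Deviations from means of 3 libraries cannot decide the question. With the replicate block 3 annexins were higher, and 2450 genes were higher and 2425 lower in all. Only Anxa3 among the annexins was called under every setting.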
